A study of Rattus norvegicus with 9 samples.

Results

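The end of septation was examined by setting lung fibroblasts of rats at postnatal day 21 against those at postnatal day 7. The comparison was made up of the 3 arrays titled day 21 and the 3 arrays titled day 7, which are 6 of the 9 arrays of the study. The other 3 arrays, from day 2, shared the estimate of the spread. Their values are given below only as a level beside those of the 2 days compared.

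Each array held RNA of cells pooled from 4 pups of a litter (5 pups on day 2), and 3 litters were used per day. The pups were described as having septation under way on day 7 and completed on day 21, and no treatment, allele or strain was given beyond the species. The 2 groups differ in age, 7 against 21 days. Litters are numbered 1 to 3 on each day, and whether a number marks the same litter on both days is not given. Lung cells were freed by digestion and kept if they attached to plastic within a short plating, without sorting, so the cells of a sample are those that attach fast and were called fibroblasts on that basis.

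Septation is the process by which ridges of tissue grow out from the walls of the newborn lung's airspaces and divide them into alveoli. Fibroblasts within the ridges lay down elastin at the growing tip and multiply while the ridges lengthen, and afterwards the walls thin and the fibroblast layer becomes sparse. Lung fibroblasts are known for making the collagens and elastic fibres of the alveolar wall, for contractile forms during septation and for lipid-storing forms beside the epithelium.

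The markers of cell types were read first, and they bear on all that follows. Over all 14217 genes, 13.7% were called higher at day 21 and 24.4% lower (limma adjusted p under 0.05). Counts of markers are to be read beside these shares. Of 19 fibroblast markers, 4 were higher at day 21 (21.1%) and 7 lower (36.8%, limma adjusted p under 0.05). None had a mean on either day under log2 4.25. That level, below which 25% of all measured values fell, is called the low end here. Summed over the list, their intensity ran from 53213 to 59167 at day 7 and from 42013 to 53009 at day 21. Macrophage markers were higher for 25 of 27, with a summed intensity of 9528 to 15327 on day 7 and 34503 to 47296 on day 21. Cd163 alone among them was below the low end, on both days.

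Mast cell markers were higher for 9 of 14 (summed intensity 296 to 345 on day 7, 885 to 2966 on day 21), and 8 of the 14, Cma1, Fcer1a, Hdc, Mcpt10, Mcpt4, Mcpt8, Mcpt9 and Ms4a2, were below the low end on day 7. Cartilage markers were higher for 8 of 11 (245 to 356 against 870 to 3568), and the day 21 value was highest on replicate 2 for this list and for mast cells. Endothelial markers fell for 13 of 19 (1948 to 2326 against 944 to 1219), and Clec14a, Emcn, Sox17 and Tmem100 ended below the low end. Pericyte markers fell for 8 of 14 and rose for 1 (3028 to 3446 against 1495 to 1827). Lymphocyte markers rose for 6 of 19 (388 to 573 against 639 to 791), but for 3 of 19 (15.8%) without day 21 replicate 2. The T cell genes Cd3d and Cd3e were below the low end on both days.

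Mesothelial markers rose for 2 of 7 (4 without day 21 replicate 3), and erythroid markers rose for 1 of 6 and fell for 1. The erythroid rise was 0 with dim probe sets left out. The erythroid falls were 2 with the litter number as a block, and 0 with arrays centred on their medians or without day 7 replicate 1 or 2 or day 21 replicate 1 or 3. Over all probe sets, arrays within a day had correlations of 0.976 to 0.988, and those of day 7 with day 21 had 0.881 to 0.930. In RNA of mixed cells, fewer cells of a type and less RNA per cell cannot be told apart.

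**Figure D1:**
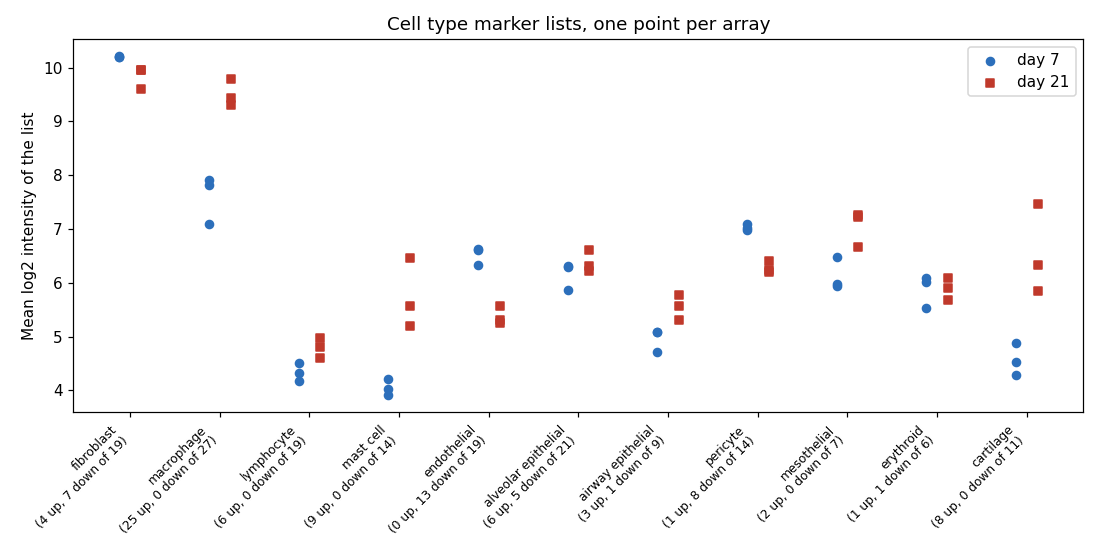
Mean log2 intensity of each cell type marker list (vertical axis) on every array, with day 7 as circles and day 21 as squares and the number of members called higher and lower under each name. The macrophage, mast cell, cartilage, airway epithelial, lymphocyte and mesothelial lists sit higher on all day 21 arrays than on any day 7 array. The endothelial, pericyte and fibroblast lists sit lower on all day 21 arrays, and the alveolar epithelial and erythroid lists overlap between the days.

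Across the genome, 5423 of 14217 genes differed between the days (38.1% of those tested, limma adjusted p under 0.05), where a gene is its brightest probe set. Of these, 1954 were higher at day 21 (13.7%) and 3469 lower (24.4%). By probe set, 30.1% of 31042 were called. A change of 2-fold or more was seen in 914 genes called higher (6.43% of all) and in 1676 called lower (11.8%). The median change over all genes was -0.015 on the log2 scale.

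The split of calls depended on how the arrays were scaled. As deposited, 36% of the called genes were higher. After a further quantile normalization 47.9% were (2825 higher, 3073 lower), and 46.5% were when array medians were set equal (2350 higher, 2704 lower). Setting the medians equal, called centring below, moved the median change over probe sets from 0.016 to 0.126 on the log2 scale, and changes below are to be read against that shift.

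The share of genes called grew with their level. In the dimmest decile of genes by mean level over the 9 arrays, 4.78% were higher at day 21 and 2.04% lower. The share called lower reached 35.9% in the seventh decile and was 29% in the brightest, while the share called higher went on growing to 19.8%. Of the genes called higher, 242 had a day 7 mean below the low end, and 243 genes called lower ended there, so that their folds rest on a signal near background.

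**Figure D2:**
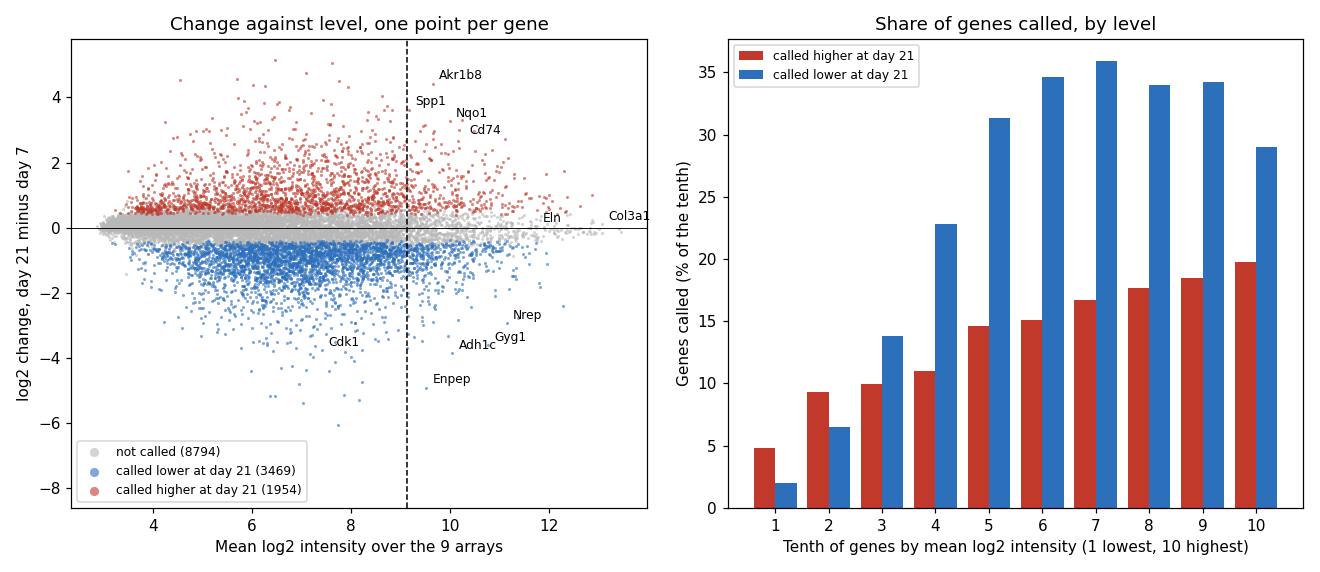
Left, log2 change from day 7 to day 21 (vertical axis) against mean log2 intensity over the 9 arrays for 14217 genes, with the dashed line at the lower bound of well-expressed genes, log2 9.13; right, percentage of genes called higher and lower in each decile of genes by level. The called share is smallest in the dimmest decile, and falls outnumber rises from the third decile up.

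Well-expressed genes were the brightest 10% of genes by their mean over the 9 arrays, 1422 genes with a mean of at least log2 9.13. Of these, 693 differed between the days (48.7%, against 37% of the other genes), 281 higher (19.8%) and 412 lower (29%). The arrays of the 2 days did not overlap for 691 of the 693. These genes were chosen by their calls, and a call favours arrays that do not overlap, so this count is no separate evidence. Over all genes, called or not, the day 21 arrays all lay above in 20.5% and all below in 30.7%. The share among all called genes is not given, so the well-expressed called genes cannot be compared with them in this respect. Changes of 2-fold or more were called for 130 rises (9.14%) and 168 falls (11.8%). Their median change was -0.15, and 737 of the 1422 (51.8%) changed by less than 0.5 on the log2 scale. The changes were of like size to those of all genes, with a median size of 0.93 among the well-expressed rises and 0.87 among the falls, against 0.95 and 0.98 for all called genes. Leaving out any array of day 7 or day 21 left 247 to 272 well-expressed genes higher and 357 to 382 lower.

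The 12 largest falls among well-expressed genes are described first. These falls, and the rises after them, were taken only from called genes whose arrays of the 2 days do not overlap. Enpep, an aminopeptidase of the cell surface that cleaves angiotensin, was at log2 11.54, 11.15 and 11.65 on the day 7 arrays and at 6.75, 6.90 and 5.94 on the day 21 arrays. It fell by 4.91 ± 0.24 on the log2 scale (SE over 3 arrays per day, limma adjusted p = 1.89e-07), and a dimmer probe set of the gene by 1.85. Adh1c, an alcohol dehydrogenase that also oxidises retinol, was at 11.45, 11.14 and 11.84 on day 7 and at 8.23, 7.48 and 7.16 on day 21 (14.4-fold lower, adjusted p = 1.28e-06). All day 21 arrays lay below all day 7 arrays for both genes, and replicate 3 was the lowest of day 21 for both.

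Mdk, the heparin-binding growth factor midkine of developing tissues, was at log2 10.45, 10.56 and 11.14 on day 7 and at 7.18, 7.20 and 6.66 on day 21 (log2 change -3.70 ± 0.24, adjusted p = 7.81e-07). Gyg1, glycogenin, which primes glycogen synthesis, was at 12.15, 12.14 and 12.29 and then at 8.55, 8.35 and 8.84 (12.2-fold lower, adjusted p = 1.62e-07). Hsd11b1, which regenerates active glucocorticoid within cells, was at 11.31, 11.19 and 11.46 and then at 7.95, 7.89 and 8.15 (9.99-fold lower, adjusted p = 3.11e-07). Replicates lay within 0.5 log2 units of one another on each day for Gyg1 and Hsd11b1, and the gap between days was over 3 units for all 3 genes.

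Among structural genes, Cdh11, a cadherin of mesenchymal cells, stood at 11.02, 10.73 and 11.02 on day 7 and at 7.47, 7.70 and 7.16 on day 21 (log2 change -3.48 ± 0.18, adjusted p = 2.68e-07). A further probe set of Cdh11 fell by 3.43, and another had a value of 0.31 in the opposite direction. Fbln5, the fibulin that guides elastic fibre assembly, stood at 10.48, 10.31 and 11.16 and then at 7.78, 7.32 and 6.78 (log2 change -3.36 ± 0.28). Pxdn, a peroxidase that crosslinks collagen IV, stood at 10.88, 10.88 and 11.05 and then at 8.44, 8.01 and 7.70 (log2 change -2.88 ± 0.19). Septin4, a filament-forming GTPase, the melanoma antigen family member Maged2, the tetraspanin Tspan6 and Nrep complete the 12 largest falls, with log2 changes of -2.97, -3.25, -2.86 and -2.93. All 12 had a mean of log2 9.69 to 11.54 on day 2, above their day 21 mean.

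The 12 largest rises among well-expressed genes follow. Akr1b8, an aldo-keto reductase that reduces aldehydes, was at log2 7.27, 7.39 and 7.30 on day 7 and at 11.54, 11.85 and 11.85 on day 21 (log2 change 4.43 ± 0.20, adjusted p = 1.13e-07). Nqo1, a quinone reductase, was at 8.19, 8.07 and 7.91 and then at 11.22, 11.42 and 11.34 (log2 change 3.27 ± 0.17, adjusted p = 2.72e-07). Srxn1, which repairs oxidised peroxiredoxins, was at 7.81, 7.60 and 7.32 and then at 10.59, 10.33 and 10.71 (log2 change 2.97 ± 0.17, adjusted p = 4.51e-07), while another probe set of it stood at 0.25. These 3 were even within each day, with the SD of 3 arrays at most 0.24 on the log2 scale.

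Cd74, the invariant chain of class II histocompatibility molecules, was at log2 8.995, 9.87 and 8.59 on day 7 and at 12.34, 12.52 and 12.49 on day 21 (9.84-fold higher, adjusted p = 3.36e-06). RT1-Da, a class II chain, was at 9.40, 10.20 and 8.90 and then at 12.39, 12.51 and 12.52 (7.86-fold higher, adjusted p = 1.51e-05). Coro1a, an actin-binding protein of leukocytes, was at 8.24, 8.43 and 7.58 and then at 10.91, 10.79 and 11.27 (7.48-fold higher, adjusted p = 9.85e-06). On day 7 all 3 were lowest on replicate 3, the array on which the macrophage list was also lowest.

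Ptgs2, the inducible cyclooxygenase, was at log2 8.11, 8.66 and 7.70 on day 7 and at 10.91, 11.38 and 10.37 on day 21 (6.64-fold higher, adjusted p = 3.11e-05). The chemokines Cxcl3 and Ccl9 and the interferon-induced Oasl rose by log2 3.12 ± 0.27, 2.99 ± 0.25 and 2.98 ± 0.23. Of Cxcl3, a further pair of probe sets had values of -0.47 and -0.33. Scgb1a1, the secretoglobin of airway club cells, rose by log2 3.16 ± 0.31, with airway epithelial markers higher for 3 of 9 and lower for 1 (summed intensity 318 to 509 on day 7, 1620 to 2973 on day 21).

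Spp1, the matrix protein osteopontin, had the least even values of these genes, at log2 6.70, 7.64 and 5.54 on day 7 and at 10.88, 10.77 and 9.11 on day 21 (log2 change 3.63 ± 0.61, adjusted p = 0.000675). The 2 days did not overlap, and replicate 3 was the lowest array of each. On day 2 the 12 genes with the largest rises had means of log2 9.15 to 11.20, a level that the choice of well-expressed genes favoured here too. None of these 24 genes lost its call, or changed direction, under any alternative that was run. The choice of the largest called changes without overlap favours this outcome, so it is no separate evidence.

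**Figure D3:**
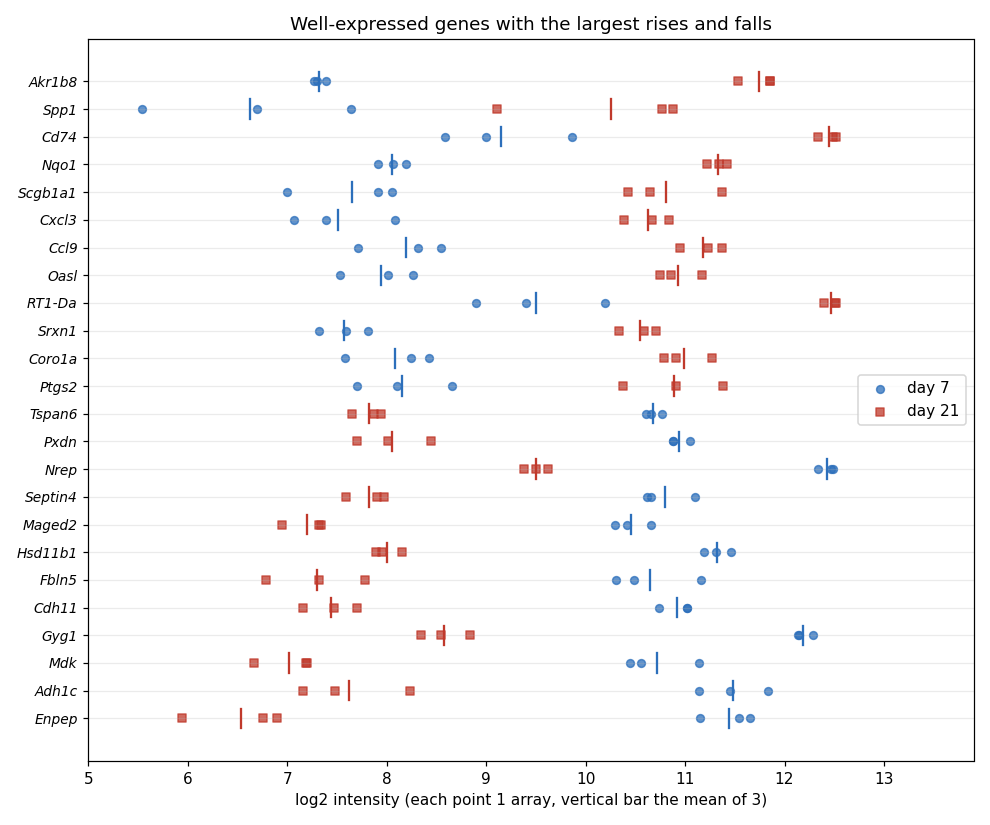
Log2 intensity (horizontal axis) on each of the 6 arrays for the 12 well-expressed genes with the largest rises and the 12 with the largest falls, with day 7 as circles, day 21 as squares and bars at the mean of 3. The genes were chosen among those whose days do not overlap, and Spp1 has the widest spread within a day.

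Whole families were counted next, 92 gene families and functional lists with at least 5 measured members. In 49 of them the share of members called higher was above the 13.7% of all genes, and in 45 the share called lower was above 24.4%. Counts of each family below are to be read beside these shares of all genes. Members were called in both directions in 77 families. By limma, 9 families held no member called higher and 6 no member called lower.

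**Figure D4:**
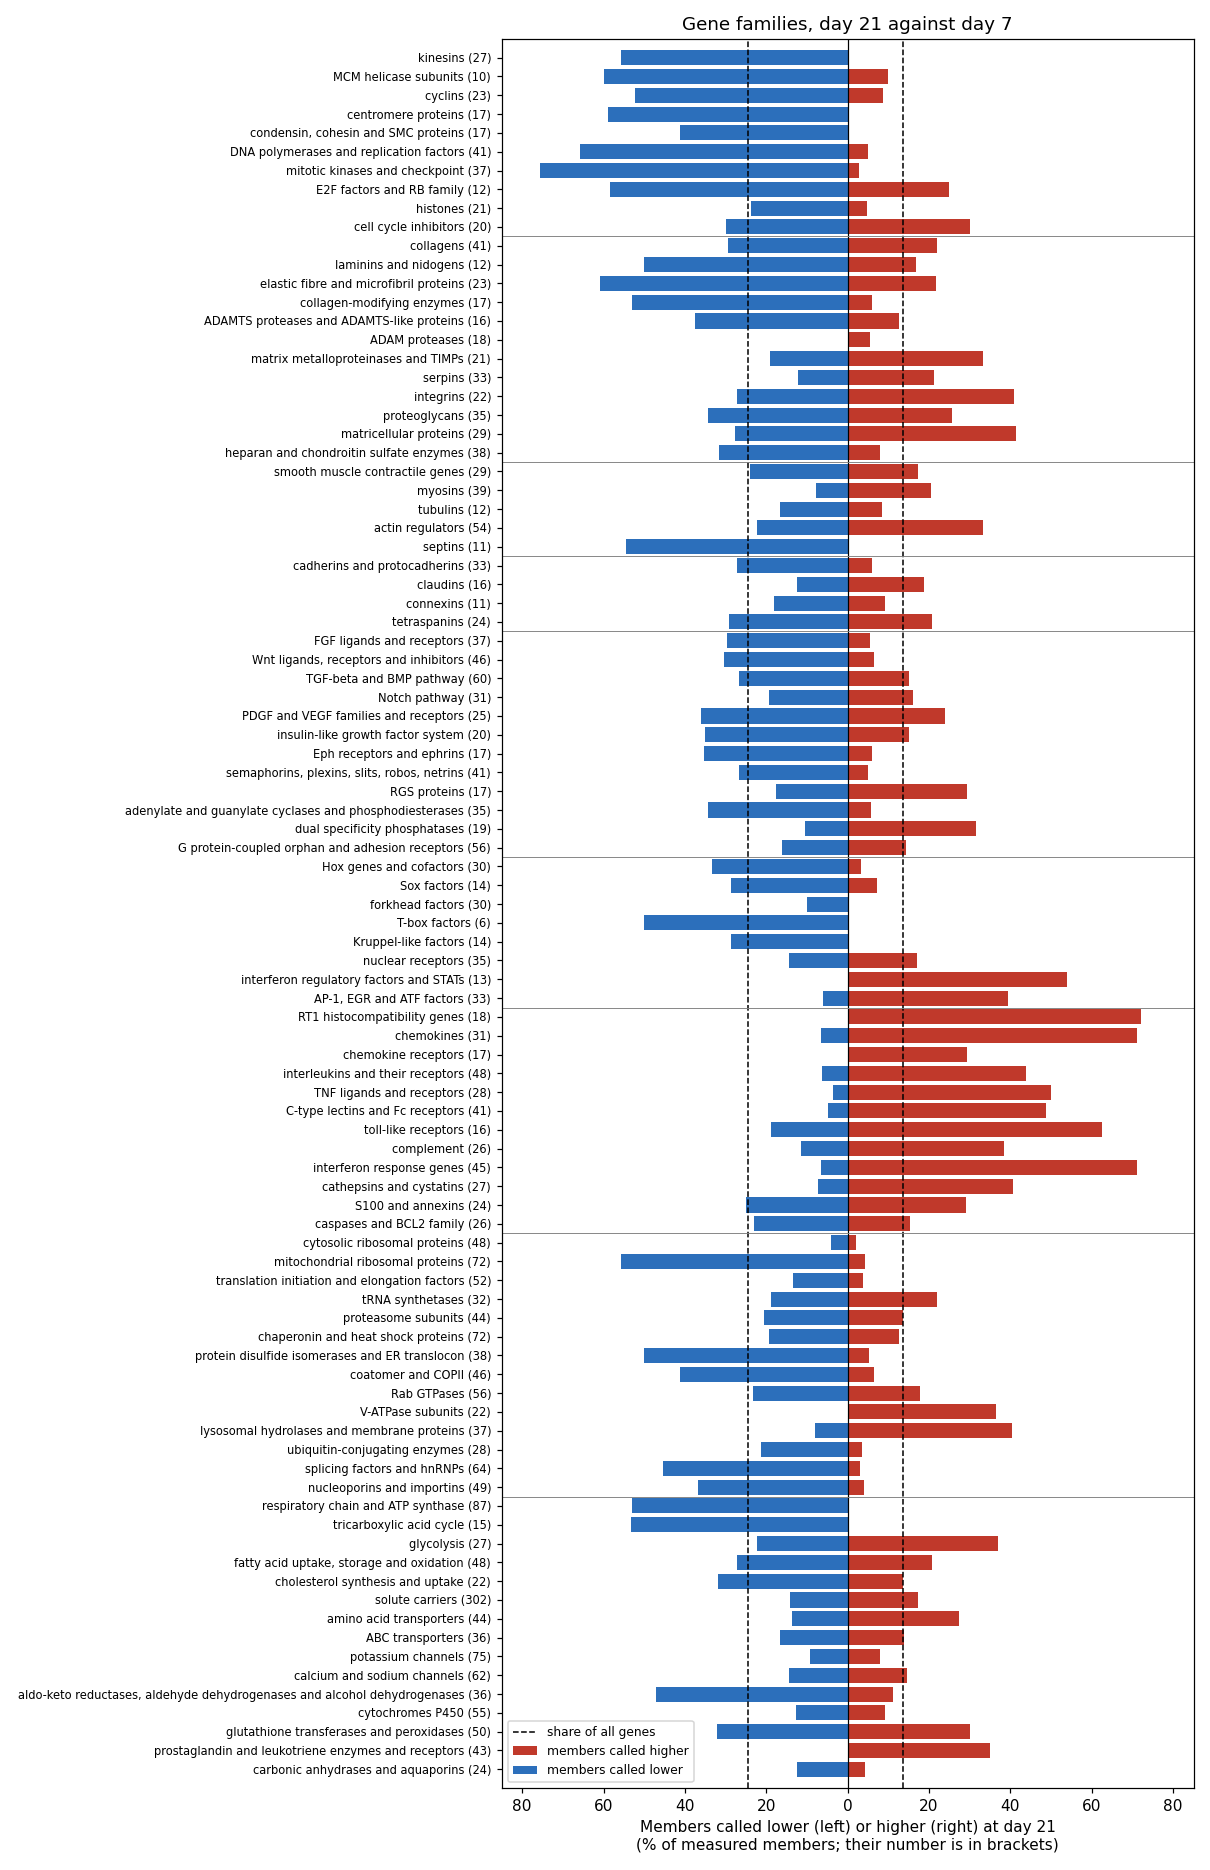
Percentage of the measured members of each family called lower (left) or higher (right) at day 21, with dashed lines at the shares of all genes, 24.4% and 13.7%, and family sizes in brackets. Most cell division, mitochondrial and secretory families extend mainly to the left and most immune families mainly to the right. Many families of the matrix and cytoskeleton extend both ways. So do the cell cycle inhibitors, S100 and annexins, and the caspases with the BCL2 family.

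Over 6 families of cell division, 93 of 149 genes were lower and 4 higher, with a median change of -0.90, and the other 52 were not called. The families were kinesins, MCM genes, centromere proteins, condensins and cohesins, replication factors, and mitotic kinases with their checkpoint. Of the mitotic kinases and checkpoint genes 28 of 37 fell, with a median of -1.58. Cdk1, the kinase that drives entry into mitosis, was at log2 8.73, 9.05 and 8.97 on day 7 and at 4.98, 4.90 and 5.59 on day 21 (13.5-fold lower, adjusted p = 3.35e-07). Top2a, which untangles replicated DNA, was at 8.57, 8.43 and 8.65 and then at 5.05, 5.29 and 5.35 (9.96-fold lower, adjusted p = 8.81e-08).

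Kinesins, motors that move along microtubules, fell for 15 of 27 and rose for none (1 reached an unadjusted p under 0.05, and 1 was called higher after quantile normalization or median centring). Kif11 and Kif20a, which build and split the spindle, changed by -2.95 ± 0.19 and -2.87 ± 0.19 on the log2 scale. Of 10 genes with MCM symbols, among them subunits of the helicase that opens DNA for copying, 6 fell. Mcm6 fell by 1.72 ± 0.18 and Mcm5 by 1.61 ± 0.17. Mcm10 went the other way, at log2 5.94, 5.64 and 4.83 on day 7 and 6.25, 7.15 and 7.29 on day 21 (limma adjusted p = 0.0035). A further probe set of Mcm10 changed by -0.57 and was called lower (limma adjusted p = 0.0202), so its probe sets had opposite calls. Replication factors fell for 27 of 41 and rose for 2 (1 without any of 4 arrays), with the thymidylate synthase Tyms at -2.27 ± 0.21 and the clamp loader Rfc3 at -2.15 ± 0.18.

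Centromere proteins fell for 10 of 17, led by Cenpw (-2.09), and condensins and cohesins for 7 of 17, led by Smc2 (-2.54). By limma none of either rose, while 1 and 0 had an unadjusted p under 0.05 in that direction, and 1 centromere protein called higher under 6 of the alternatives. Cyclins fell for 12 of 23 and rose for 2 (1 without any array but day 7 replicate 1). The mitotic cyclin Ccnb2 was 8.98-fold lower and the G1 cyclin Ccnd1 3.41-fold lower, and Ccng1, a p53 target that does not drive division, was 1.86-fold higher. Histones, most of whose messages lack a poly(A) tail, had 5 of 21 members lower (2 to 3 without day 7 replicate 1 or 2 or day 21 replicate 1 or 2), 1 higher (0 without any of the arrays but day 21 replicate 3) and a median of -0.08.

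Regulators of the G1 phase split. Of 12 E2F and RB genes 7 fell and 3 rose, with the repressor E2f8 at log2 change -1.75 ± 0.19 and E2f2 at 1.38 ± 0.24. Of 20 inhibitors of the cell cycle 6 rose and 6 fell. Cdkn1a, the p21 inhibitor, rose by log2 1.09 ± 0.16 and the stress-induced Gadd45a by 1.43 ± 0.20. Cdkn1c, the p57 inhibitor of growing tissues, was at log2 10.33, 10.28 and 10.56 on day 7 and at 8.89, 8.68 and 8.53 on day 21 (log2 change -1.69 ± 0.15, adjusted p = 9.02e-06).

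The promoter of Cdk1 is shown because the letters of known cell cycle elements stand in it. The stretch is the 250 bases before the RefSeq start of the gene, chr20:19265043-19265292 of GRCr8, plus strand, with capitals marking CCAAT boxes (as ATTGG, the reverse strand of CCAAT) and the cell cycle homology region TTTGAA:

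Cdk1: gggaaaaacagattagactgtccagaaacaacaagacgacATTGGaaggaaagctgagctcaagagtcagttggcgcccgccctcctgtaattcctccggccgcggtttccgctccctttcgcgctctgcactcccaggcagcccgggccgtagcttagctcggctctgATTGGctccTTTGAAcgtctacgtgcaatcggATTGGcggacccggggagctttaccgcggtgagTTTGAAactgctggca

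These letters were searched on both strands of the same 250 bases in 130 of the 149 cell division genes (87.2% matched by symbol), and the marked stretches of Cdk1 do not overlap. TTTGAA was found in 21 of the 80 called lower (26.2%), in 4 of the 46 not called (8.7%) and in 1 of the 4 called higher. It was in 10.9% of promoters of all measured genes. Over the whole set 26 of 130 held it (20%), and so did 7 of 36 interferon response genes (19.4%), a family described below that mostly rose. CCAAT was found in 46 of the 80 called lower (57.5%), in 20 of the 46 not called (43.5%) and in 2 of the 4 called higher, against 35.1% of promoters of measured genes. The Cdk1 promoter held 3 CCAAT boxes, the nearest 49 to 45 bases before the start, and TTTGAA at 72 to 67 and 16 to 11 bases before it.

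The matrix families were divided. Of 23 elastic fibre and microfibril genes 14 fell and 5 rose, with a median of -0.98. Fbn2, the fibrillin of developing tissues, was at log2 7.66, 7.43 and 7.27 on day 7 and at 4.55, 4.08 and 4.02 on day 21, the last 2 below the low end. Emilin1 and Mfap2, which bind microfibrils, fell by 2.50 ± 0.25 and 2.43 ± 0.25 on the log2 scale. Emilin2, Efemp1 and Fbln2 rose, by log2 2.05 ± 0.29, 1.69 ± 0.20 and 1.34 ± 0.23, so that relatives within the fibulin and emilin groups moved apart.

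Eln, the gene of elastin, rested on which probe set was read. The brightest was at log2 11.83, 11.74 and 11.91 on day 7 and at 11.97, 11.99 and 11.68 on day 21 (log2 change 0.05 ± 0.17, adjusted p = 0.861). A dimmer probe set of Eln was higher by log2 1.76 and called, and with the mean of its probe sets the change was 0.91 (adjusted p = 0.00634). The fibrillar collagens Col1a1 and Col3a1 were not called, at 0.41 ± 0.26 (adjusted p = 0.28) and 0.11 ± 0.14 (adjusted p = 0.625), and a second probe set of Col1a1 stood at -0.27.

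Of 41 collagen chains 12 fell and 9 rose. Col13a1, a transmembrane collagen, was at log2 9.95, 9.65 and 10.14 on day 7 and at 4.78, 5.06 and 4.52 on day 21. Col25a1, also membrane-bound, was at 7.95, 7.46 and 7.75 and then at 3.32, 3.52 and 3.12, below the low end. Col6a6 and Col8a2 fell by 2.44 ± 0.27 and 1.69 ± 0.27 on the log2 scale. None of these 4 is a fibrillar chain.

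The largest collagen rises were of cartilage chains and were uneven. Col2a1 was at log2 4.13, 4.88 and 4.11 on day 7 and at 9.09, 10.84 and 8.39 on day 21 (log2 change 5.07 ± 0.52), with other probe sets at 1.53 and 0.24. Col9a1 was at 2.59, 4.59 and 3.44 and then at 7.16, 8.63 and 6.24. Day 21 replicate 2 was the highest of its day for all 4 cartilage chains that rose most, Col2a1, Col9a1, Col9a2 and Col9a3, and for the cartilage marker list, of which these chains are members. Without it, 5 of 41 collagens rose in place of 9, Col2a1 by log2 4.37 and Col9a1 by 3.16. The part of cartilage cells in this result was not tested.

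Nid1, a nidogen of basement membranes, was at log2 11.50, 11.23 and 11.44 on day 7 and at 9.44, 8.96 and 8.48 on day 21, and 6 of 12 laminins and nidogens fell, 5 of them well expressed. Lamb3 and Lama3, chains of epithelial laminin, were the 2 that rose (1 without day 21 replicate 2). Of 17 collagen-modifying enzymes 9 fell and 1 rose (0 without day 7 replicate 1 or 2 or day 21 replicate 1 or 2), with the hydroxylase P3h1 at -1.71 ± 0.22 and its chaperone partner Fkbp10 at -1.63 ± 0.21. Of 38 enzymes that build or sulfate glycosaminoglycan chains 12 fell and 3 rose (6 after quantile normalization), with Ext2, of heparan sulfate synthesis, at -1.81 ± 0.18.

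Matrix metalloproteinases and their inhibitors rose for 7 of 21 and fell for 4. Mmp12, the macrophage elastase, was at log2 8.30, 9.20 and 8.27 on day 7 and at 11.22, 11.28 and 11.29 on day 21 (6.38-fold higher, adjusted p = 1.24e-05). Mmp13 and Mmp3, a collagenase and a stromelysin, rose from below the low end by log2 3.89 ± 0.27 and 3.04 ± 0.42, and with dim probe sets left out 4 of 17 rose. ADAMTS proteases, secreted enzymes of the matrix, fell for 6 of 16 and rose for 2 (1 without day 7 replicate 2 or 3 or day 21 replicate 1 or 2), with Adamts7 at -2.05 ± 0.18. Adam8, a sheddase of leukocytes, was the one ADAM protease of 18 called (log2 change 3.51 ± 0.18), with another probe set at 0.07. ADAM proteases called lower numbered 0 by limma and 0 at an unadjusted p under 0.05, and 1 without day 7 replicate 3. Those called higher numbered 2 after quantile normalization or median centring.

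Proteoglycans fell for 12 of 35 (34.3%) and rose for 9 (25.7%). Dcn, decorin, which binds collagen fibrils, was at log2 10.91, 11.10 and 9.98 on day 7 and at 12.18, 12.11 and 11.57 on day 21 (log2 change 1.29 ± 0.27, adjusted p = 0.00301). Its relative Fmod went the other way, at 9.94, 9.85 and 10.84 and then at 8.56, 8.74 and 7.58 (log2 change -1.92 ± 0.33, adjusted p = 0.000802). Agrn, a heparan sulfate proteoglycan of basement membranes, and the hyaluronan synthase Has2 fell by 2.20 ± 0.22 and 1.99 ± 0.30 on the log2 scale.

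Matricellular proteins, which tune how cells sense the matrix, rose for 12 of 29 and fell for 8 (5 without day 21 replicate 3). Tnc, tenascin C, was at log2 12.52, 12.29 and 12.42 on day 7 and at 9.75, 9.95 and 9.21 on day 21 (6.84-fold lower, adjusted p = 1.36e-06). Fn1, fibronectin, was at 12.51, 12.32 and 12.67 and then at 10.70, 10.92 and 10.45 (3.50-fold lower, adjusted p = 9.99e-06). Postn and Cthrc1, both tied to growing mesenchyme, fell by 1.32 ± 0.16 and 2.36 ± 0.18 on the log2 scale, whereas Ccn3 rose by 1.66 ± 0.15. The largest riser was Spp1, described above.

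Of 22 integrins, the receptors that hold cells to the matrix, 9 rose and 6 fell. The leukocyte subunits Itgax, Itgam, Itgb2 and Itgal rose by log2 2.17 to 2.59, and Itgax, Itgam and the macrophage list moved together, the former pair being among its members. Itga8, the integrin of alveolar and contractile fibroblasts, was at log2 9.35, 8.96 and 9.78 on day 7 and at 5.02, 5.49 and 4.40 on day 21 (21.0-fold lower, adjusted p = 7.81e-07), with a second probe set at -3.72. Itga1, a collagen receptor, fell by 2.17 ± 0.44 on the log2 scale.

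Contractile and cytoskeletal genes showed no common direction. Of 29 smooth muscle genes 5 rose (17.2%) and 7 fell (24.1%), near the shares of all genes, with a median of 0.00. The rises were 2 to 3 without day 7 replicate 1 or 2 or day 21 replicate 1 or 2. Acta2, smooth muscle actin, was at log2 9.87, 9.76 and 9.45 on day 7 and at 10.33, 10.49 and 10.19 on day 21, a rise of 0.64 ± 0.21 (adjusted p = 0.0336). The call of Acta2 was lost with the litter number as a block (adjusted p = 0.0545) and without day 7 replicate 2 (adjusted p = 0.0646), day 7 replicate 3, day 21 replicate 1 or day 21 replicate 2. Mylk, the kinase that activates smooth muscle myosin, and Fhl1 fell by 1.04 ± 0.17 and 1.69 ± 0.18. Lmod1, a leiomodin that nucleates actin filaments, rose by 1.46 ± 0.24.

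Septins, which form rings and filaments under the membrane, fell for 6 of 11, with none higher by limma or at an unadjusted p under 0.05 and 1 called higher after quantile normalization or median centring. After Septin4 came Septin10, at log2 8.88, 8.83 and 8.95 on day 7 and at 6.47, 6.64 and 6.40 on day 21. Of 54 actin regulators 18 rose and 12 fell. The risers Coro1a, Capg and Lcp1 are abundant in leukocytes, and Gsn, gelsolin, a fibroblast marker, was at log2 10.23, 10.31 and 10.32 on day 7 and at 12.19, 12.14 and 11.71 on day 21. Enah and Evl, which extend actin filaments at moving edges, fell by 2.00 ± 0.18 and 1.74 ± 0.17. Further probe sets stood at 0.10 and -1.28 for Enah and at 0.38 for Evl.

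**Figure D5:**
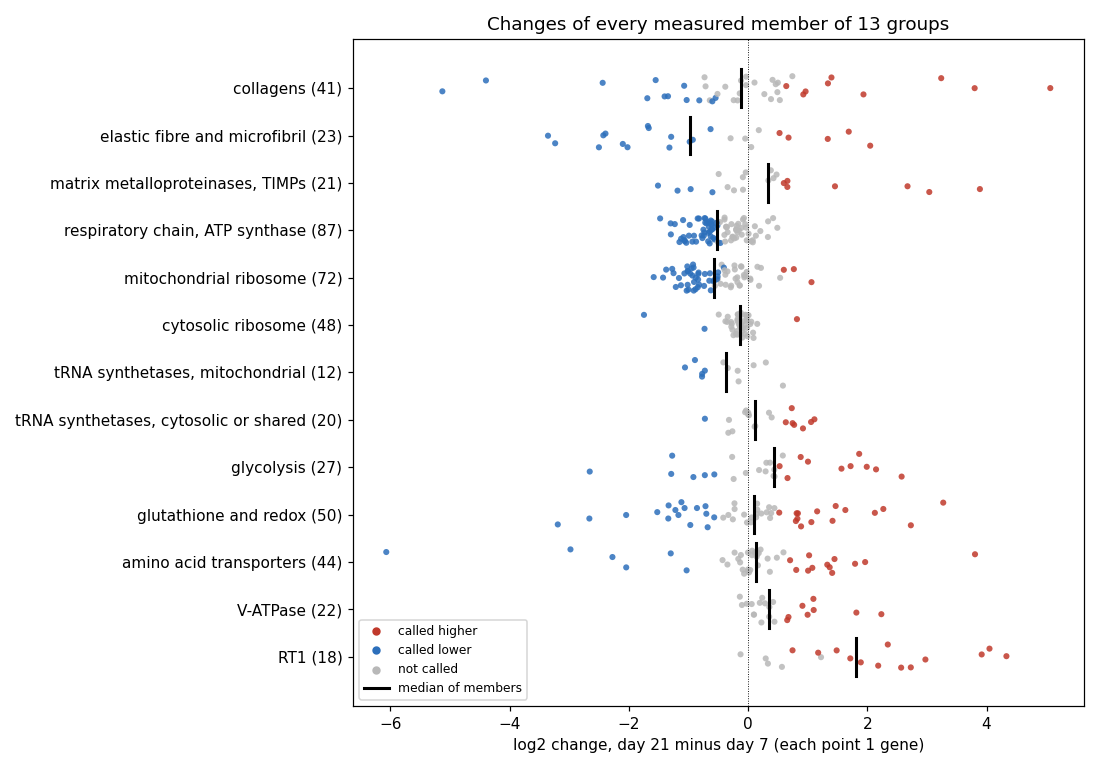
Log2 change from day 7 to day 21 (horizontal axis) of every measured member of 13 families or parts of families, coloured by call, with a bar at the median. Collagens, glutathione and redox genes and amino acid transporters spread to both sides, the cytosolic ribosome stays near 0 and the respiratory chain and mitochondrial ribosome lie mostly below 0.

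Families of growth and patterning signals had shares called lower from 10.5% to 36%, on both sides of the 24.4% of all genes. The share was 10.5% in dual specificity phosphatases and 16.1% in orphan and adhesion receptors coupled to G proteins. RGS proteins had 17.6% and the Notch pathway 19.4%. Of 37 FGF ligands, receptors and targets 11 fell (29.7%) and 2 rose (0 to 4 across the alternatives). The receptor Fgfr4 was at log2 8.82, 8.32 and 8.95 on day 7 and at 4.69, 4.20 and 4.45 on day 21, and Fgfr3 at 9.73, 9.27 and 9.74 and then at 5.57, 6.29 and 5.40. Etv1 and Etv4, transcription factors induced by FGF signals, fell by 3.15 ± 0.23 and 2.91 ± 0.20, and the 4 other probe sets of Etv1 changed by -2.98 to -3.48. Of the family 24 of 37 members were not called, and 19 had a positive change against 18 negative.

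In the Wnt family 14 of 46 fell (30.4%) and 3 rose (5 after quantile normalization, 1 with the mean of a gene's probe sets). Wnt2, a ligand of lung mesenchyme, was at log2 7.67, 7.48 and 8.36 on day 7 and at 3.80, 4.61 and 4.44 on day 21, and its second probe set changed by -3.58. The receptor Fzd1 fell by 1.44 ± 0.19, and Sfrp2, a secreted Wnt binder, rose by 1.84 ± 0.30. In the TGF-beta and BMP family 16 of 60 fell (26.7%) and 9 rose (14 after quantile normalization). Tgfb1 was at log2 6.33, 6.08 and 6.76 and then at 8.95, 8.93 and 9.40 (6.53-fold higher, adjusted p = 0.000491), and Bmp7 fell by 2.16 ± 0.25.

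Vegfd, a ligand of lymphatic and blood vessel receptors, was at log2 8.85, 8.61 and 8.72 on day 7 and at 4.91, 4.80 and 4.88 on day 21 (14.6-fold lower, adjusted p = 8.01e-08), and 9 of 25 genes of the PDGF and VEGF families fell and 6 rose. Pdgfra, the receptor that marks septating fibroblasts, was at 9.34, 9.14 and 8.97 and then at 8.02, 8.06 and 7.16 (log2 change -1.40 ± 0.23, adjusted p = 0.000547). The co-receptors Nrp2 and Nrp1 rose by 1.38 ± 0.17 and 0.79 ± 0.15. In the insulin-like growth factor system 7 of 20 fell, led by the insulin receptor Insr (-1.59 ± 0.27), and the binding protein Igfbp6 rose by 1.93 ± 0.23.

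Guidance molecules fell for 11 of 41 (26.8%) and rose for 2 (5 after quantile normalization). Slit2, a repellent cue, was at log2 10.58, 10.10 and 10.81 on day 7 and at 5.35, 5.67 and 4.65 on day 21, and its receptor Robo2 at 8.83, 8.77 and 8.69 and then at 5.81, 6.17 and 5.42. The netrin receptor Unc5c fell by 3.69 ± 0.21 and Slit3 by 1.95 ± 0.18. A further probe set of Slit2 fell by 4.29 and another stood at 0.09. Eph receptors and ephrins fell for 6 of 17, with Efna5 at -2.51 ± 0.21 (another probe set at 0.11). Slit2 and Robo2 both ended lower on all arrays of day 21.

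Cyclases and phosphodiesterases fell for 12 of 35 and rose for 2. The soluble guanylate cyclase subunits Gucy1a1 and Gucy1b1, receptors of nitric oxide and also pericyte markers, were at log2 9.66, 9.43 and 10.01 and at 9.25, 9.16 and 9.23 on day 7, and at 7.74, 6.64 and 6.86 and at 7.79, 7.32 and 8.01 on day 21. Dual specificity phosphatases, which switch off MAP kinases, rose for 6 of 19 and fell for 2. Dusp5 was at 7.85, 7.37 and 7.64 and then at 9.72, 9.73 and 9.71 (4.28-fold higher, adjusted p = 6.24e-06). RGS proteins rose for 5 of 17 (3 without day 7 replicate 3) and fell for 3, with Rgs1 at 2.65 ± 0.23 and Rgs3 at -2.12 ± 0.23. Further probe sets of Rgs3 stood at 0.21 and 0.24.

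Families of developmental transcription factors are to be read against the 24.4% of all genes called lower. Of 30 Hox genes and cofactors 10 fell and 1 rose (0 to 2 across the alternatives), led by Meis2 (-2.32 ± 0.23). Of 6 T-box genes 3 fell, and none rose by limma or at an unadjusted p under 0.05. Tbx5, of the foregut mesenchyme, was at log2 8.82, 9.12 and 8.70 on day 7 and at 6.63, 6.68 and 6.41 on day 21. Of 14 Sox genes 4 fell, among them Sox17, an endothelial marker (-2.01 ± 0.23), and Sox4 (-1.47 ± 0.17). Further probe sets of Sox17 stood at -0.02 and -0.20, and those of Sox4 ran from -1.63 to 0.25. Of 30 forkhead genes 3 fell (1 with the mean of a gene's probe sets), and of 14 Kruppel-like factors 4 fell. The mitotic forkhead factor Foxm1 was at -1.61 ± 0.22, with another probe set at -0.22. Forkhead and Kruppel-like factors called higher numbered 0 by limma, with 0 and 2 at an unadjusted p under 0.05 and up to 2 of each called under other settings.

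Of 35 nuclear receptors 6 rose (17.1%) and 5 fell (14.3%). Thrb, a thyroid hormone receptor, was at log2 6.97, 6.61 and 6.80 on day 7 and at 8.65, 8.31 and 8.45 on day 21 (3.20-fold higher, adjusted p = 1.42e-05). The other thyroid hormone receptor gene, Thra, was at 9.13, 9.09 and 9.21 and then at 7.23, 7.23 and 7.42 (3.60-fold lower, adjusted p = 2.57e-06), with 2 dimmer probe sets at -0.08 and 0.27. Nr1d1, a clock repressor, rose by 2.15 ± 0.26 and Pparg, the adipogenic receptor that macrophages also express, by 1.17 ± 0.18.

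AP-1, EGR and ATF genes, which respond to stress and growth signals, were higher for 13 of 33 and lower for 2, and 6 to 8 were higher without day 7 replicate 1, day 7 replicate 2 or day 21 replicate 1. Fosl1, an AP-1 subunit, was at log2 7.49, 7.41 and 7.94 on day 7 and at 9.99, 10.34 and 9.53 on day 21 (5.07-fold higher, adjusted p = 1.66e-05). Interferon regulatory factors and STATs rose for 7 of 13, with none lower by limma or at an unadjusted p under 0.05. Irf7, which amplifies interferon, was at 6.18, 5.83 and 6.07 and then at 8.51, 8.67 and 8.45.

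Immune families had the largest shares of risers, though not every list grouped with them did. S100 and annexins rose for 7 of 24 (29.2%, 11 after quantile normalization) and fell for 6 (25%). Caspases with the BCL2 family rose for 4 of 26 (15.4%, 8 after quantile normalization) and fell for 6 (23.1%). In the same samples 25 of 27 macrophage markers were higher, as given above, and macrophages express many of the genes that follow. The part of macrophages in these results was not tested. Of 18 RT1 histocompatibility genes 13 rose, with a median of 1.80 and none lower by limma or at an unadjusted p under 0.05. RT1-Ba was at log2 7.40, 7.96 and 6.73 on day 7 and at 11.31, 11.34 and 11.58 on day 21. Other probe sets of RT1-Ba changed by 3.50, 0.83 and 0.35, the last not called. Members of this family are close copies of each other, so that probe sets may read more than their own gene.

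Chemokines rose for 22 of 31 and fell for 2, with a median of 1.66. Ccl22, a chemokine that attracts T cells, was at log2 4.40, 4.42 and 4.04 on day 7 and at 8.24, 8.32 and 8.24 on day 21, and Ccl11, the eosinophil attractant eotaxin that fibroblasts also make, at 5.97, 5.85 and 5.29 and then at 10.05, 8.96 and 9.23. Cxcl12, a chemokine of mesenchymal cells, fell by 1.34 ± 0.19 on the log2 scale (other probe sets at -0.19 and -1.75). Chemokine receptors rose for 5 of 17 (3 without day 7 replicate 3), with none lower by limma or at an unadjusted p under 0.05. Cxcr4, the receptor of Cxcl12, rose by 1.78 ± 0.22, opposite in direction to its ligand.

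Interleukins and their receptors rose for 21 of 48 and fell for 3. Il6 was at log2 7.10, 6.93 and 7.02 on day 7 and at 10.70, 11.03 and 10.16 on day 21 (12.3-fold higher, adjusted p = 3.61e-07), and Il7r rose by 3.63 ± 0.20. TNF ligands and receptors rose for 14 of 28 and fell for 1, C-type lectins and Fc receptors for 20 of 41 with 2 lower, and toll-like receptor genes for 10 of 16 with 3 lower. Tril, an accessory protein of Tlr4, was at 8.20, 8.05 and 8.43 and then at 5.35, 5.44 and 5.19, and Tlr4 itself fell by 0.77 ± 0.20, while Tlr1 and Tlr2 rose by 2.16 ± 0.22 and 2.05 ± 0.21. Complement genes rose for 10 of 26, C3 by 2.86 ± 0.26, and fell for 3, among them C6 and Masp1.

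Interferon response genes rose for 32 of 45 and fell for 3, with a median of 1.12. Ifit3, which restrains viral RNA, was at log2 6.01, 5.72 and 4.86 on day 7 and at 9.99, 9.96 and 10.14 on day 21. Ifi27 and Ifitm2 went against the rest, at 11.12, 11.36 and 11.26 and at 11.03, 11.25 and 11.23 on day 7, and at 10.26, 10.15 and 10.65 and at 10.11, 10.48 and 10.45 on day 21. The arrays of the 2 days did not overlap for either. Of the 5 well-expressed members of the list, 2 were not called, 2 were these and the other was Oasl.

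The promoter of Ifit3 is shown for the element named after this response. It is the 250 bases before the RefSeq start, chr1:241527076-241527325 of GRCr8, plus strand, with capitals marking the interferon-stimulated response element, searched on both strands as GAAA, any 2 bases and GAAA, and here read from the reverse strand:

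Ifit3: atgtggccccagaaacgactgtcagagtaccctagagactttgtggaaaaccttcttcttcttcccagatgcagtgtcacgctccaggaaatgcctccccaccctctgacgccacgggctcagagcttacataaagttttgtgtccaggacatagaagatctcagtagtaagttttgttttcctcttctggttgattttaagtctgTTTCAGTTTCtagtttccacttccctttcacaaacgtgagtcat

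The match lies 44 to 35 bases before the start. Of 36 interferon response genes with a promoter here (80% of 45), 23 held these letters (63.9%), against 3.29% of all 27457 promoters. They were found in 15 of 26 genes called higher, in the 3 called lower and in 5 of the 7 not called, so the letters were common in the family whichever way a member moved.

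Cathepsins and cystatins, proteases of the lysosome and their inhibitors, were higher for 11 of 27 and lower for 2 (0 with centring, 1 under 6 other alternatives), with Cst3, cystatin C, at log2 10.16, 10.67 and 10.34 on day 7 and at 12.55, 12.49 and 12.52 on day 21 (4.38-fold higher, adjusted p = 3.36e-06). Lysosomal genes rose for 15 of 37 and fell for 3, and subunits of the V-ATPase, the pump that acidifies lysosomes, rose for 8 of 22, all 8 well expressed, with none lower by limma or at an unadjusted p under 0.05. Atp6v0b was at 8.03, 7.89 and 8.12 and then at 10.18, 9.97 and 10.60 (4.71-fold higher, adjusted p = 5.32e-05). Arsb, the lysosomal arylsulfatase, fell by 1.74 ± 0.20.

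Enzymes and receptors of prostaglandins and leukotrienes rose for 15 of 43. None fell by limma, with 1 lower at an unadjusted p under 0.05 and 1 called lower under 4 of the alternatives. Pla2g2a, a secreted phospholipase, was at log2 4.69, 4.54 and 4.46 on day 7 and at 7.29, 7.62 and 6.73 on day 21. The prostaglandin receptor Ptger2 rose by 2.29 ± 0.23. With Ptgs2, above, the release of the fatty acid, its conversion and a receptor were all represented among the risers.

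Of 48 cytosolic ribosomal proteins limma called 1 higher and 2 lower (5 with a pseudocount of 16 or a variance trend), with a median of -0.13. Of the 38 that were well expressed limma called 0, with 1 at an unadjusted p under 0.05. Mitochondrial ribosomal proteins fell for 40 of 72 and rose for 3 (5 after quantile normalization), with a median of -0.57. Mrps11 was at log2 7.19, 7.68 and 7.61 on day 7 and at 5.58, 6.004 and 6.14 on day 21 (3.00-fold lower, adjusted p = 6.4e-05). Median centring did not move the count of mitochondrial ribosomal falls beyond 1.5 times.

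Aminoacyl-tRNA synthetases, which load tRNAs, were divided by compartment, a division chosen after the values were seen. Of 20 that serve the cytosol or both compartments 7 rose and 1 fell, with a median of 0.12. Of 12 mitochondrial forms 5 fell and none rose by limma, and their median was -0.38 (1 reached an unadjusted p under 0.05 upwards). Iars1, the cytosolic isoleucine enzyme, was at log2 6.63, 6.71 and 6.81 on day 7 and at 7.69, 8.12 and 7.51 on day 21 (adjusted p = 0.00108), with a dimmer probe set at -0.07. Its mitochondrial partner Iars2 was at 6.24, 6.45 and 6.59 and then at 5.40, 5.53 and 5.67 (adjusted p = 0.00177). The same opposition held for the cysteine enzymes, with Cars1 at 0.92 ± 0.17 and Cars2 at -0.77 ± 0.16.

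The Iars1 promoter is shown for the amino acid response element, through which cells sense amino acid shortage. It is the 250 bases before the RefSeq start, chr17:15193653-15193902 of GRCr8, minus strand, printed in the direction of the gene, with capitals marking TGATGNAA, searched on both strands and here read from the reverse strand:

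Iars1: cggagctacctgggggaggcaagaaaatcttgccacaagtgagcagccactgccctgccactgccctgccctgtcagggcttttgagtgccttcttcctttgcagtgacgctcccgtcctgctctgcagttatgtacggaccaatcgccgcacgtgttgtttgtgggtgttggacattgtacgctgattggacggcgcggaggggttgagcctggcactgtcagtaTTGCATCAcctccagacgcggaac

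The letters were present in 3 of the 7 synthetases called higher, in none of the 6 called lower and in 2 of the 17 not called, against 2.02% of promoters of measured genes. Amino acid transporters, which supply the same substrates, rose for 12 of 44 and fell for 6. Slc7a11, the cystine carrier, was at log2 6.07, 5.44 and 4.92 on day 7 and at 9.35, 9.39 and 9.11 on day 21. Slc1a5 and Slc7a1, carriers of neutral and cationic amino acids, rose by 1.79 ± 0.17 and 1.45 ± 0.22. Slc38a5, a glutamine carrier, was at 10.10, 10.02 and 10.47 and then at 3.80, 4.05 and 4.53, and Slc7a10 fell by 2.98 ± 0.18.

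Protein disulfide isomerases and translocon genes of the endoplasmic reticulum were lower for 19 of 38 and higher for 2 (1 without any array but day 7 replicate 3), with a median of -0.52, and 10 were lower with arrays centred on their medians. Ssr1, of the translocon, was at log2 9.62, 9.68 and 9.80 on day 7 and at 8.25, 8.33 and 8.51 on day 21 (2.52-fold lower, adjusted p = 2.38e-05). Coatomer and COPII genes, whose coats carry cargo between the reticulum and the Golgi, fell for 19 of 46 and rose for 3 (5 after quantile normalization). The cargo receptor Lman1 and the retrieval receptor Kdelr1 fell by 1.67 ± 0.17 and 1.21 ± 0.14. Serpinh1, the collagen chaperone, was at 10.93, 11.24 and 11.27 and then at 10.38, 10.31 and 10.23, and Sec23b, a COPII subunit, rose by 1.12 ± 0.16.

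Splicing factors and hnRNPs were lower for 29 of 64 (18 with arrays centred on their medians) and higher for 2 (0 without day 7 replicate 2 or day 21 replicate 1 or 2, 5 after quantile normalization), with Hnrnpa0 at log2 11.31, 11.22 and 11.20 on day 7 and at 9.73, 9.82 and 9.51 on day 21. Nucleoporins and importins were lower for 18 of 49 (10 with centring, which is 20.4%, against 19% of all genes under that scaling), with Ipo9 at -1.67 ± 0.18. Proteasome subunits divided, 6 of 44 higher and 9 lower (4 lower with centring, 5 without day 7 replicate 2), and the 2 largest rises were the interferon-induced Psmb8 (1.85 ± 0.27) and Psmb9 (1.02 ± 0.19). Translation factors fell for 7 of 52, 13.5% (3 with centring), led by Eif5a2 (-1.90 ± 0.17).

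Respiratory chain and ATP synthase genes fell for 46 of 87, 25 of them among the 44 well-expressed members, with a median of -0.53. None rose by limma, though 1 reached an unadjusted p under 0.05 in that direction and 1 was called higher under quantile normalization, median centring and the variance trend. With arrays centred on their medians 24 of 87 fell. By complex, the falls were 25 of 42 in complex I, 3 of 4 in complex II, 4 of 8 in complex III with cytochrome c, 3 of 17 in complex IV and 11 of 16 in ATP synthase. Complex IV had a median of -0.20 and complex I one of -0.61.

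Ndufs4, a subunit of complex I, was at log2 9.72, 9.97 and 10.37 on day 7 and at 8.71, 8.25 and 8.67 on day 21 (2.78-fold lower, adjusted p = 0.000117). Uqcrc2, of complex III, was at 10.39, 10.31 and 10.34 and then at 9.29, 8.87 and 9.19 (2.35-fold lower, adjusted p = 9.02e-05). In the tricarboxylic acid cycle 8 of 15 fell and none rose by limma or at an unadjusted p under 0.05. Idh2, the mitochondrial isocitrate dehydrogenase, was at 10.41, 10.50 and 10.84 and then at 7.97, 7.76 and 7.85 (6.63-fold lower, adjusted p = 4.27e-07). The fall of Idh2 was larger than that of any respiratory chain subunit, of which Ndufs4 had the largest at log2 -1.48.

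Glycolysis rose for 10 of 27 and fell for 6, and isoenzymes moved in opposite directions. Pfkp, a phosphofructokinase, was at log2 7.57, 7.69 and 7.32 on day 7 and at 9.48, 9.83 and 9.71 on day 21 (4.43-fold higher, adjusted p = 2.81e-06), while the muscle form Pfkm fell by 0.92 ± 0.16, with other probe sets at 0.19 and -1.05. Hk1, the hexokinase, was at 6.84, 6.93 and 6.90 and then at 8.93, 8.87 and 8.83, with a second probe set at 0.24. Ldhb, the lactate dehydrogenase subunit of oxidative tissues, was at 8.48, 8.92 and 9.40 and then at 6.34, 6.71 and 5.79. The lactate carriers Slc16a3 and Slc16a1 rose by 2.58 ± 0.30 and 1.86 ± 0.15, and another probe set of Slc16a1 stood at 0.20.

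Of 48 genes of fatty acid handling 10 rose and 13 fell. Fabp4 and Lpl, of lipid uptake in fat cells and macrophages, rose by 2.58 ± 0.33 and 1.96 ± 0.25 and were highest on day 21 replicate 3, as was the macrophage list. Fads1, a desaturase, was at log2 8.49, 8.40 and 8.54 on day 7 and at 6.78, 6.70 and 6.92 on day 21, and Hadh, of fatty acid oxidation, fell by 1.59 ± 0.17. Cholesterol genes fell for 7 of 22 (3 with centring, 4 after quantile normalization, without day 7 replicate 2 or without day 21 replicate 1) and rose for 3.

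Redox defence split into 15 of 50 genes higher and 16 lower. Hmox1, which degrades haem, was at log2 9.63, 9.56 and 9.26 on day 7 and at 12.25, 11.98 and 12.41 on day 21 (6.63-fold higher, adjusted p = 6.42e-07). Gclc, of glutathione synthesis, was at 7.20, 7.01 and 6.96 and then at 9.42, 9.21 and 9.35 (4.82-fold higher, adjusted p = 7.16e-07). Gsta4, a glutathione transferase of lipid aldehydes, was at 10.02, 10.01 and 10.26 and then at 6.95, 6.87 and 6.89 (9.14-fold lower, adjusted p = 3.35e-07). Gstt3, Gstz1 and Gpx7, which also use glutathione, fell as well.

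The promoter of Gclm, the partner subunit of Gclc, is shown for the antioxidant response element. It is the 250 bases before the RefSeq start, chr2:213031885-213032134 of GRCr8, plus strand, with capitals marking TGACNNNGC, searched on both strands and here read from the reverse strand:

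Gclm: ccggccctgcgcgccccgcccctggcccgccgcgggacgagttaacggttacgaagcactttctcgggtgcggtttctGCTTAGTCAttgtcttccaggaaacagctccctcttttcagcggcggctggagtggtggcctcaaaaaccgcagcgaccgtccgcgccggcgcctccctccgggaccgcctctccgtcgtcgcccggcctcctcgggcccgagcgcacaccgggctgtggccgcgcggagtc

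The match lies 172 to 164 bases before the start. Gclm, named after its values were seen, was at log2 6.97, 7.07 and 6.97 on day 7 and at 8.01, 8.08 and 8.11 on day 21. Of the 50 redox genes 42 had a promoter here (84%). These letters were found in 3 of the 10 of them called higher, in 2 of the 13 called lower and in 4 of the 19 not called, against 12.3% of promoters of measured genes. Aldo-keto reductases and aldehyde and alcohol dehydrogenases showed the same split with more falls, 17 of 36 lower and 4 higher (7 with the mean of a gene's probe sets, 2 without day 21 replicate 2). Aldh7a1 and Akr7a3 fell by 2.06 ± 0.19 and 1.98 ± 0.19, opposite to Akr1b8. Of 55 cytochromes P450, 7 were lower and 5 higher (8 with centring, 3 without day 7 replicate 2, without day 7 replicate 3 or with dim probe sets left out), with Cyp2u1 at -3.15 ± 0.17 and the well-expressed Cyp1b1 at 0.99 ± 0.17.

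Among channels and carriers, solute carriers were higher for 52 of 302 (17.2%) and lower for 43 (14.2%). Of their mitochondrial branch, the 39 Slc25 carriers, 6 were higher and 8 lower. Slc39a8, a zinc carrier, was at log2 5.38, 5.44 and 4.98 on day 7 and at 8.08, 8.58 and 8.23 on day 21. Potassium channels rose for 6 of 75 (13 with arrays centred on their medians) and fell for 7, and calcium and sodium channels rose for 9 of 62 and fell for 9. Cacna1d, an L-type calcium channel, was at 7.84, 7.32 and 8.48 and then at 4.22, 4.29 and 4.38, and the mechanical and heat-gated Trpv2 rose by 2.11 ± 0.26.

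Genes often used as controls were not all steady. Of 11, Rplp0 changed by 0.09 ± 0.13, Eef1a1 by -0.17 ± 0.13 and Ywhaz by 0.13 ± 0.14 on the log2 scale, and none of these was called. A dimmer probe set of Ywhaz rose by 0.48 and was called (limma adjusted p = 0.0439). Hprt1, at 0.39, was not called, but was called higher under alternatives that included quantile normalization and a pseudocount of 16. B2m, the light chain of class I histocompatibility molecules, rose by 0.96 ± 0.16 and the transferrin receptor Tfrc by 1.47 ± 0.19. Gusb and Sdha, lysosomal and mitochondrial enzymes, fell by 1.12 ± 0.18 and 0.60 ± 0.15. Vim, vimentin, of mesenchymal cells, was at log2 12.50, 12.48 and 12.74 on day 7 and at 12.64, 12.43 and 12.66 on day 21, and its change of 0.00 ± 0.15 had no direction (adjusted p = 0.992).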

How the data were processed

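Expression was measured on single-colour Affymetrix arrays in 9 samples, 3 per postnatal day. The authors deposited probe set intensity values on a linear scale, made with RMA in affy per the submitters' processing notes; the sources used here name no version or filter. RMA evens out array distributions and compresses dim signals, yet medians of the 6 arrays compared still ran from 38.8 to 50.4. Log2 ratios of 3' to 5' control probe sets of beta-actin were 0.93, 0.71 and 1.18 on day 7 and 0.57, 0.73 and 0.49 on day 21. Those of Gapdh were -0.11, -0.051 and 0.25 on day 7 and 0.24, 0.15 and 0.11 on day 21. The part of RNA quality in the results was not tested.

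Log2 was taken of the deposited intensity, 57 control probe sets were left out, and 31042 were tested with limma 3.58.1 in R 4.3.3 (a mean per day over all 9 arrays, two-sided tests, residual degrees of freedom 6 and prior 5.69, Benjamini-Hochberg, adjusted p under 0.05). Errors are limma SEs over 3 arrays per day. The p-values measure spread between litters, and precision is bounded by there being 3 arrays a day. A platform annotation gave 1 symbol to 20826 probe sets, several to 436 and none to 9780, and 14217 genes were each read from their brightest probe set over all arrays. Probe sets of 29 genes were called in opposite directions. Further probe sets are given above for some of the named genes and not for all. Among those not given, Cacna1d had -0.71 and -0.09, Masp1 -0.14 and 0.25, Hadh -0.23, Nrp2 0.23 and Gja5 -0.67. Tmem100 had -0.01, Gja1 1.10 and 0.07, Arsb -0.48, Serpinh1 -0.19 and Thrb 1.78, 2.02 and 0.31. This list is not complete.

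Named genes were the 12 largest rises and 12 largest falls among well-expressed called genes with no overlap of arrays, up to 4 called members per family and direction, and fixed control and landmark genes. The members and lists were chosen with earlier results of these data known. Families were counted without set tests, and 1 family is not reported here. Gclm and the markers Cd163, Cd3d, Cd3e, Fcer1a, Mcpt4, Mcpt8, Mcpt9 and Ms4a2 were named outside the rule. Promoters come from a RefSeq table of GRCr8 and were matched by symbol for 11733 genes (82.5%).

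Same-numbered arrays of days 7 and 21 deviated from their day means with correlations of -0.24 to -0.036, so litter numbers were not taken to pair samples. In simulated data of 31042 probe sets, only 50 probe sets were changed per size. Log2 changes of 2 and -2 were recovered at 100%, of 1 at 74% and of -1 at 84%, with 10 false calls. Of the measured probe sets 30.1% were called, a far larger share than was changed in the simulation. The Benjamini-Hochberg cutoff depends on that share, so these rates do not carry over to the calls made here. Alternatives were other scalings, other fits, a filter, a pseudocount of 16, the mean of a gene's probe sets, other thresholds and each array left out.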

Additional observations from a re-analysis of the deposited data

How the results depend on the processing

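The counts of genes higher and lower stayed within 1.5 times of 1954 and 3469, and those of well-expressed genes within 1.5 times of 281 and 412, in every alternative run but these. At an adjusted p under 0.01, 1296 genes were higher. With the brightest 25% of genes taken as well expressed, 675 were higher and 1145 lower, out of 3555 in place of 1422. Leaving out each array in turn gave 1627 to 1769 genes higher and 3020 to 3357 lower, and 247 to 272 and 357 to 382 well-expressed genes. The litter numbers were not taken to pair the samples, and with the litter number as a replicate block 1914 genes were higher and 3405 lower, with 282 and 402 of the well expressed.

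Of 623 named genes, Pdlim7 turned direction, from 0.84 to -0.083 with the mean of its probe sets (adjusted p = 0.793). Centring each array on its median took the call from 18, the mean of a gene's probe sets from 19, and leaving out an array from 29 to 38. The cause was not tested beyond the smaller number of arrays. The signal of dim probe sets limits folds to or from levels near log2 4.25, and 3 arrays per day limit the precision of each change.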

Other observations

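Claudins and connexins, 2 families of junction genes, had shares called lower below the 24.4% of all genes. Claudins rose for 3 of 16 (1 without day 7 replicate 1 or day 21 replicate 2) and fell for 2 (12.5%). Connexins rose for 1 of 11 and fell for 2 (18.2%), or for 1 with centring, without day 21 replicate 3 or without any array of day 7. A vessel-related member of each ended lower on day 21. Cldn5, a claudin of endothelial tight junctions, was at log2 7.98, 8.29 and 8.04 on day 7 and at 5.46, 6.17 and 5.56 on day 21 (log2 change -2.37 ± 0.22, adjusted p = 1.07e-05). Gja5, a connexin of arterial endothelium, was at 7.04, 7.01 and 7.59 and then at 3.61, 3.65 and 3.88, below the low end. Endothelial markers, Cldn5 among them, fell for 13 of 19 in the same samples, and their part in these values was not tested. Gja1, the widespread connexin of mesenchymal cells, rose by 1.24 ± 0.29.

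Tetraspanins, which organise membrane receptors, rose for 5 of 24 (20.8%) and fell for 7 (29.2%). The leukocyte forms Cd37 and Cd53, also on the macrophage list, rose by 2.75 ± 0.36 and 2.46 ± 0.30, and Tspan9, at log2 9.39, 9.18 and 9.34 on day 7 and 6.31, 6.66 and 6.32 on day 21, fell with Tspan12, which changed by -2.08 ± 0.21. Another probe set of Tspan9 stood at -0.26. Carbonic anhydrases and aquaporins fell for 3 of 24 and rose for 1 (up to 3 under other settings). Car3, a cytosolic form of muscle and fat, was at 8.44, 8.27 and 9.24 and then at 4.58, 4.26 and 4.19, and the mitochondrial Car5b rose by 2.01 ± 0.28.

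Alveolar epithelial markers had no common direction, with 6 of 21 higher and 5 lower (3 lower with array medians set equal or without day 7 replicate 2, day 21 replicate 1 or day 21 replicate 3). Sftpc, the surfactant protein gene of type 2 cells, was at log2 9.74, 9.50 and 8.87 on day 7 and at 8.15, 8.09 and 8.30 on day 21 (adjusted p = 0.0112). Napsa, the protease that processes surfactant protein and is also made by macrophages, was at 7.07, 6.93 and 5.70 and then at 9.14, 8.89 and 9.63. Of this list 2 members were higher without day 7 replicate 3 and 3 without day 21 replicate 2.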
